A study of Mus musculus with 2 samples.

Results

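The interferon receptors and interferon-stimulated genes of mouse were examined as a list of 43 genes among 21887 protein-coding genes, through the peaks of accessible chromatin at their loci in CD8+ T cells. A locus was taken as the span of a gene in the mm10 genome with 10 kb added on each side, and each peak that touched any of these loci was counted once. This gave 187 of 85285 peaks in the control library and 166 of 65098 peaks in the treatment library. All 43 genes were found in the gene table.

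Accessible DNA was tagged by a transposase and sequenced (ATAC-seq) from CD8+ T cells described by the series title as Peml-1 cells, a name the labels do not define. There was 1 library titled control and 1 titled treatment, and the groups below carry these titles. A treatment field reads "Treatment" for the first and "Combined treatment" for the second. Neither field names an agent, dose or time, and no strain, age or genetic change was given for either library. With 1 library per group there was no replicate check and no test between groups, so every value compares these libraries and not the conditions. Intervals given below cover counting error only, and neighbouring peaks of a locus are not independent.

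Type I interferons bind a receptor made of Ifnar1 and Ifnar2, and interferon gamma binds a receptor made of Ifngr1 and Ifngr2. Both receptors signal through Janus kinases to STAT proteins, which bind DNA at the gamma-activated sequence or, together with Irf9, at the interferon-stimulated response element. The genes switched on in this way detect viral RNA, block translation, degrade RNA, attack the membranes around intracellular microbes and attract other T cells, and in CD8+ T cells interferon also acts on expansion and memory.

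Peaks stood at genes of the labelled cell type in both libraries. An end of Cd3e, which encodes a chain of the T cell receptor complex, carried a peak 14.1-fold over local background in control and 10.9-fold in treatment, and Cd8a carried peaks of 9.42-fold and 6.82-fold. The 10 CD8 T cell markers held 115 control and 107 treatment peaks, the 6 B cell markers 38 and 34, the 6 myeloid markers 25 and 20, the 4 dendritic cell markers 23 and 25, and the 3 NK cell markers 9 and 5. Of the NK cell markers, Ncr1 had no peak in either library, Klrb1c had 6 and 2 peaks, and Klrk1, which activated CD8+ T cells also express, had 3 in each at up to 22.3-fold and 14.8-fold. The part of other cells in the peaks described here was not tested. Fewer cells with an open site and a less open site in each cell cannot be told apart in such bulk libraries.

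The 250 bases before the annotated start were read for the 35 members with an entry in the RefSeq promoter table (assembly GRCm38.p6, the assembly of mm10). The remaining members are Dhx58, Gbp4, Oas2, Parp9, Parp14, Rtp4, Usp18 and Zbp1. The windows were searched on both strands for GAAA followed after 2 free bases by GAAA, the core of the interferon-stimulated response element, which reads TTTC, 2 free bases and TTTC on the other strand. They were also searched for TTCNNNGAA, the gamma-activated sequence, which is its own reverse complement. Matches may overlap one another. The sequences shown are the 8 members with the core, a peak in both libraries and the highest control fold, then Ifi44 and Oasl1, which had no peak at their own ends. Isg15 was added after its values were seen, since its end peak was found in control only. Each runs 5′ to 3′ along the gene's strand and stops at the base before the start, with matches to the core in capitals.
Ifit1 (chr19:34640639-34640888, plus strand): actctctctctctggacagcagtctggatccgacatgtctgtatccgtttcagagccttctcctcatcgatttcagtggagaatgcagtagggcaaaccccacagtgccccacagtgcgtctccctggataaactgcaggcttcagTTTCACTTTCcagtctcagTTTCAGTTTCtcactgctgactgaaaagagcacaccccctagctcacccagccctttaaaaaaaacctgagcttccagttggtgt
Gbp3 (chr3:142559794-142560043, plus strand): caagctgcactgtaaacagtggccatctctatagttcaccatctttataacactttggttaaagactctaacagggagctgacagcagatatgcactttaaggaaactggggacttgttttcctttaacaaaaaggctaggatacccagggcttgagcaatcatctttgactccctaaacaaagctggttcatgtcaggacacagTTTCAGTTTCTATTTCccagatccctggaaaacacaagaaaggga
Rsad2 (chr12:26456453-26456702, minus strand): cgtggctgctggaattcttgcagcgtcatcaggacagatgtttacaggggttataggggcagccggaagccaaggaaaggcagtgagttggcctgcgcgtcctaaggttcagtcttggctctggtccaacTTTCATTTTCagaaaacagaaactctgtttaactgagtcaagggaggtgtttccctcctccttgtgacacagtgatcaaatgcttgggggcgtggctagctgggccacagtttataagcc
Bst2 (chr8:71537473-71537722, minus strand): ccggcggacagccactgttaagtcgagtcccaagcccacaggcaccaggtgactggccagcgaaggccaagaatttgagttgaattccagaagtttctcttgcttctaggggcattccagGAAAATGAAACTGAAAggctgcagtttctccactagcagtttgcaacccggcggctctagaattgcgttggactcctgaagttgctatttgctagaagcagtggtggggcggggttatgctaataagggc
Ifit3 (chr19:34583279-34583528, plus strand): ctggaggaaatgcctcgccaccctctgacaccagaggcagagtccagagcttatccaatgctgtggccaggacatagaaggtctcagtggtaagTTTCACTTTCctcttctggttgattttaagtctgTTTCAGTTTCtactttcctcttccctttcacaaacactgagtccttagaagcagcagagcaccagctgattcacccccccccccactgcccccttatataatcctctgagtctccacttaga
Igtp (chr11:58199306-58199555, plus strand): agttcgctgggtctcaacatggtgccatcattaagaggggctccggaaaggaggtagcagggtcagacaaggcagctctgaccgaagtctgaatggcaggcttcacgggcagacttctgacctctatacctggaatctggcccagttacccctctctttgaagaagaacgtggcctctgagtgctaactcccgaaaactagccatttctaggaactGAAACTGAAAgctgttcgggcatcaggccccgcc
Gbp7 (chr3:142530086-142530335, plus strand): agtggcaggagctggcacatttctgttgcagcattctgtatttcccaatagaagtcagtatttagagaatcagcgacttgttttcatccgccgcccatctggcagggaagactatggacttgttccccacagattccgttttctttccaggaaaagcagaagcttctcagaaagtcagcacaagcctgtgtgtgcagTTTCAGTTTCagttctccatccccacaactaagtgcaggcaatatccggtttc
Cxcl10 (chr5:92348890-92349139, minus strand): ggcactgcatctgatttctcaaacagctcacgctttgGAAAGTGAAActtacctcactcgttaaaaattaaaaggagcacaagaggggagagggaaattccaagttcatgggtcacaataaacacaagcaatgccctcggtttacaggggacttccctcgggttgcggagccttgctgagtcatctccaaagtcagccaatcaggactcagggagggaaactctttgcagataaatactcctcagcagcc
Ifi44 (chr3:151749911-151750160, minus strand): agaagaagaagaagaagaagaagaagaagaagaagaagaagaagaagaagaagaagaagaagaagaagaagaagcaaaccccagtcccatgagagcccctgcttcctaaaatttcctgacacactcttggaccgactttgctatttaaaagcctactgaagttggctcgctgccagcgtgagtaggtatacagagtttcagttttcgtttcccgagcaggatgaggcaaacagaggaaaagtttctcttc
Oasl1 (chr5:114922990-114923239, plus strand): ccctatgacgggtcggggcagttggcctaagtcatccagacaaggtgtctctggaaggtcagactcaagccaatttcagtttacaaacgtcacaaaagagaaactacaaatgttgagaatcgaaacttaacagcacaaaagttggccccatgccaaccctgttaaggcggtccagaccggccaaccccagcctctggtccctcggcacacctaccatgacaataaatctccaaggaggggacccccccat
Isg15 (chr4:156200819-156201068, minus strand): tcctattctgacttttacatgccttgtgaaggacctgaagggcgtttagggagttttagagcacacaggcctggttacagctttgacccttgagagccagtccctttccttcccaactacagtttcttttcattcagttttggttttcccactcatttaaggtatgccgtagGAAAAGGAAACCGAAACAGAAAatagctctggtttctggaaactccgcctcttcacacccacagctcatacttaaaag

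In these windows the core of Ifit1 began 104 and 85 bases before the start, and those of Gbp3 began 45 and 39 bases before it. Isg15 held 3 matches, of which the nearest began 66 bases before the start. The core was found in 14 members (Bst2, Cxcl10, Gbp2, Gbp3, Gbp5, Gbp7, Ifit1, Ifit3, Igtp, Irgm1, Isg15, Oas1a, Oas3 and Rsad2), which is 34.1% of 41 member windows (95% Wilson interval 21.6 to 49.5), beside 2.96% of all 21263 protein-coding windows of the same length. The gamma-activated sequence was found in 10 members (Bst2, Eif2ak2, Gbp5, Gbp7, Ifit2, Ifnar2, Igtp, Isg20, Oas1a and Samhd1), which is 24.4% of member windows beside 6.58% of all. A match describes the letters only.

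Peaks covered most of these windows in both libraries. Of the 41 member windows, 35 overlapped a peak in both (all protein-coding windows 55.9%), 2 in control only (3.63%), 0 in treatment only (0.207%) and 4 in neither (40.3%). The windows of Isg15 and Ifi47 were those with a control peak only. Those of Cxcl9, Ifi44 and Oasl1 had none. Among the 14 member windows with the core, 13 had a peak in both libraries (92.9%), and the exception was Isg15. The share was 81.5% of the 27 member windows without the core and 47.5% of all 630 protein-coding windows with it. The window sequences of Ifit1, Gbp3, Rsad2, Bst2, Ifit3, Igtp, Gbp7 and Cxcl10 thus each overlapped a peak in both libraries.

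The treatment list was shorter than the control list over all genes, and less so at the interferon loci. Treatment had 0.888 times as many peaks as control at member loci and 0.776 times as many at the loci of all protein-coding genes (64958 and 50438 peaks). Within gene bodies the ratios were alike, 0.746 for members and 0.744 for all loci. Near gene ends, within 1 kb, they were 0.955 and 0.891, and between genes 1 and 0.739. The DNA covered by peaks came to 130.4 kb in control and 123.6 kb in treatment at member loci, a ratio of 0.948, against 0.779 over all gene loci. Summit coverage, the reads stacked at the highest point of a peak, had a median of 386 reads in control and 340.5 reads in treatment at member loci, and 239 and 208 reads over all gene loci.

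Most interferon-locus peaks were found in both libraries. Of the 187 control peaks, 156 overlapped a treatment peak by at least 1 bp, which is 83.4% (77.4 to 88.1). The other 31, or 16.6%, had no overlap, against 27.5% of control peaks at all gene loci. Of the 166 treatment peaks, 152 were shared (91.6%, 86.3 to 94.9), and 14 (8.43%) were found in treatment only, against 6.28% over all loci. With the control list cut to its strongest peaks, so that both lists had equal length, 91.7% of control and 78.9% of treatment member peaks were shared, beside 84.9% and 84.6% over all loci.

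Sharing differed with position. Peaks whose summit lay within 1 kb of an end of any protein-coding gene are called gene-end peaks. In control, 62 of 67 gene-end peaks of the interferon loci were shared (92.5%, 83.7 to 96.8), so 7.46% were single, against 12.9% over all loci. Away from gene ends, 94 of 120 were shared (78.3%, 70.1 to 84.8), so 21.7% were single, against 31.8%. Within gene bodies 52 of 71 were shared (73.2%), and between genes 42 of 49 (85.7%), beside 68.1% and 68.5% over all loci. In treatment, 3 of 64 gene-end peaks (4.69%) were single against 1.54%, and 11 of 102 others (10.8%) against 7.95%. Those others were split, with 3 of 53 single within gene bodies (5.66%, all loci 8.18%) and 8 of 49 between genes (16.3%, all loci 7.10%). The loci also held more gene-end peaks than gene loci at large, 35.8% against 22.7% of control peaks and 38.6% against 26.1% of treatment peaks.

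**Figure D1:**
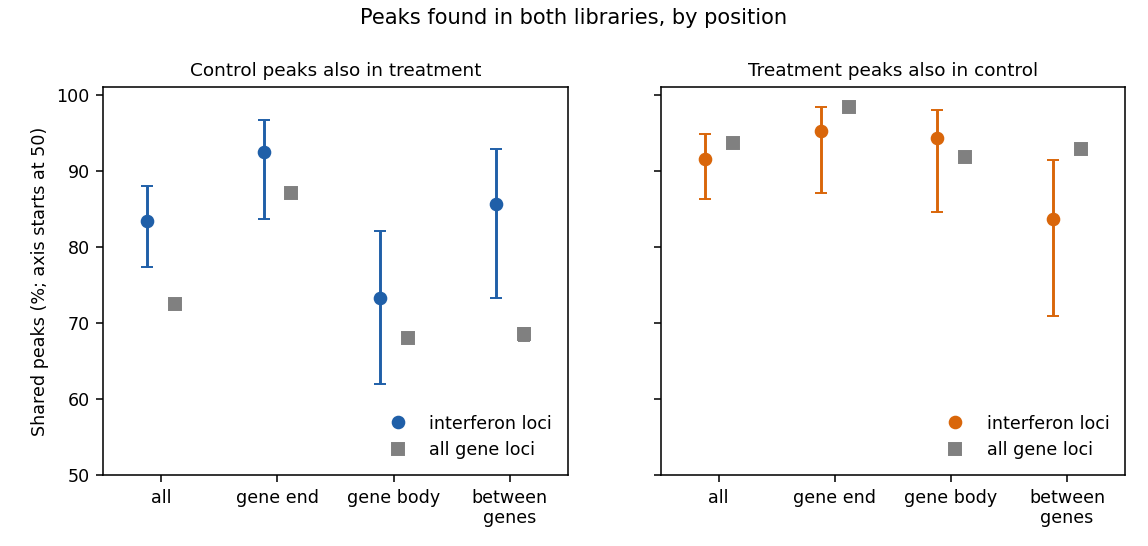
Share of peaks found in both libraries, in percent on an axis that starts at 50, for peaks at the 43 interferon loci and at all protein-coding gene loci, by position; one panel gives control peaks and the other treatment peaks. Points are shares and bars are 95% Wilson intervals. In control, gene-end peaks of the interferon loci stand at 92.5% and gene-body peaks at 73.2%.

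Peaks found in a single library were narrow and weak. The 31 control-only peaks had a median fold of 3.49, a median width of 229 bp and a median summit coverage of 105 reads, and the 14 treatment-only peaks had 2.58, 246 bp and 80.5 reads. Shared member peaks had a median fold of 8.96 and a width of 689.5 bp in control. Within bands of summit coverage, control member peaks under 100 reads were shared in 17 of 32 cases (53.1%, all loci 31.2%). The share was 40 of 50 from 100 to 300 reads (80%, all loci 70.5%), 76 of 82 from 300 to 1000 reads (92.7%, all loci 94.5%) and 23 of 23 above that. Within bands of fold, control member peaks under 4-fold were shared in 24 of 45 cases (53.3%, all loci 37.0%). The share was 44 of 52 from 4-fold to 8-fold (84.6%, all loci 61.1%) and 36 of 38 from 8-fold to 12-fold (94.7%, all loci 85.3%). Above that it was 52 of 52 (all loci 97.2%). Sharing among the interferon loci therefore moved with peak strength by either measure, as it did over all loci. Whether strength accounts for the difference in share was not tested.

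Peaks at gene ends were stronger and wider than the rest. Gene-end peaks of the interferon loci had a median fold of 9.88 and a median width of 977 bp in control, and 8.96 and 1003.5 bp in treatment. The other peaks had a median fold of 5.71 and a width of 492 bp in control, and 5.64 and 533.5 bp in treatment. Over all gene loci, gene-end peaks had a median fold of 12.65 in control and 12.97 in treatment, above those of the interferon loci. The local background, which divides the fold, was a median of 43.5 reads in control and 48.9 reads in treatment for member peaks, beside 24.8 and 23.9 reads over all loci. Among gene-end peaks alone it was 59.9 and 56.6 reads for members, beside 56.8 and 52.0 reads over all loci.

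A total of 148 peaks at the interferon loci formed pairs in which 1 control peak overlapped 1 treatment peak and no other. The median ratio of treatment to control coverage was 0.815 in these pairs and 0.720 in all 45962 pairs at gene loci. Coverage was higher in treatment in 32 pairs (21.6%, all pairs 15.2%). The peak was wider in treatment in 54 pairs (36.5%, all pairs 20.6%), and the median width ratio was 0.967 against 0.915. At gene ends the coverage ratio of members, 0.820 over 59 pairs, was close to that of all gene-end pairs, 0.829, and 9 of the 59 were higher in treatment (15.3%, all 17.6%). Away from gene ends it was 0.807 over 89 pairs against 0.681, and 23 were higher in treatment (25.8%, all 14.3%). Fold was higher in treatment in 43 of the 148 pairs (29.1%, all 26.3%), in 18 of the gene-end pairs (30.5%, all 39.8%) and in 25 of the others (28.1%, all 21.3%). Width was greater in treatment in 16 of the gene-end pairs (27.1%, all 11.5%) and in 38 of the others (42.7%, all 24%). In these libraries the member median of the coverage ratio thus exceeded that of all pairs away from gene ends and not at gene ends.

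**Figure D2:**
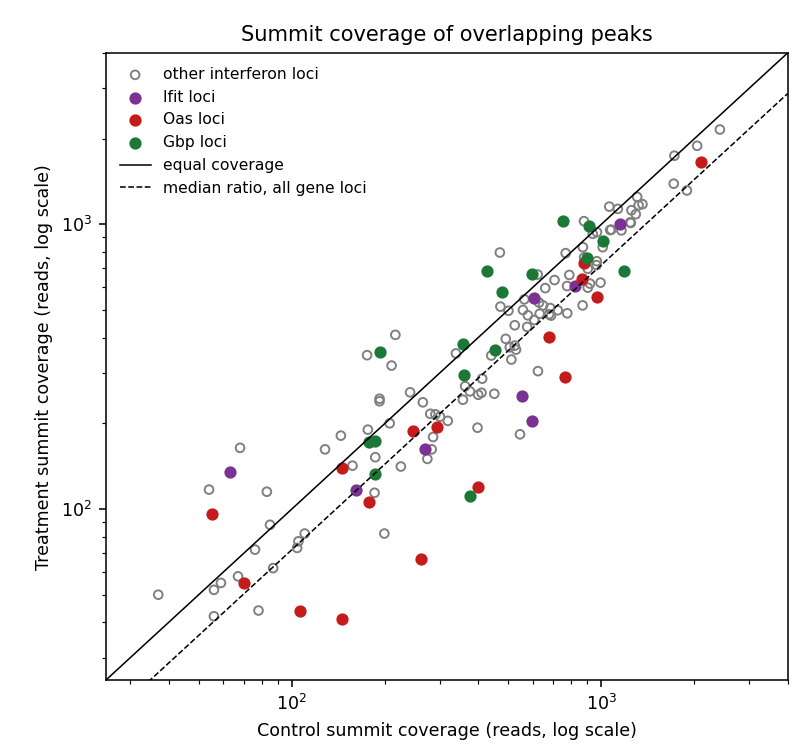
Summit coverage in reads of overlapping peaks at the interferon loci, control on the x axis and treatment on the y axis, both logarithmic; each point is 1 of 148 pairs. The solid line marks equal coverage and the dashed line the median ratio of 0.720 over all gene loci; 32 pairs lie above the solid line.

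Gene by gene, 24 of the 43 members had fewer peaks in treatment (all protein-coding genes 44.7%), 6 had more (5.65%) and 13 had as many (29.5%). None was without a peak, whereas 20.2% of all protein-coding genes were. Genes without a peak count in the all-gene shares given here, although they cannot have fewer or more in treatment. The member and all-gene shares thus have unlike bases. The 6 members with more were Gbp4, Igtp, Irgm1, Samhd1, Trim25 and Usp18. With lists of equal length, 8 members had fewer and 15 more, so the majority direction depended on the length of the control list. The shares of all genes were not counted at equal length. The number of peaks was lower by 2 or more at Gbp3, Ifnar2, Ifngr2, Isg20, Oas2 and Rtp4 (6 of 43, all genes 22%), but with equal lists only Ifngr2 stayed lower by 2. With equal lists Gbp3, Ifnar2 and Isg20 were lower by 1, Oas2 had 3 in each library and Rtp4 had 2 more in treatment. It was higher by 2 at Samhd1 and Trim25, which were higher by 5 and 4 with equal lists. At Ifnar2 and Rtp4 the lower number came only in part from control-only peaks, of which they had 2 and 1. A treatment peak at each also spanned several control peaks.

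**Figure D3:**
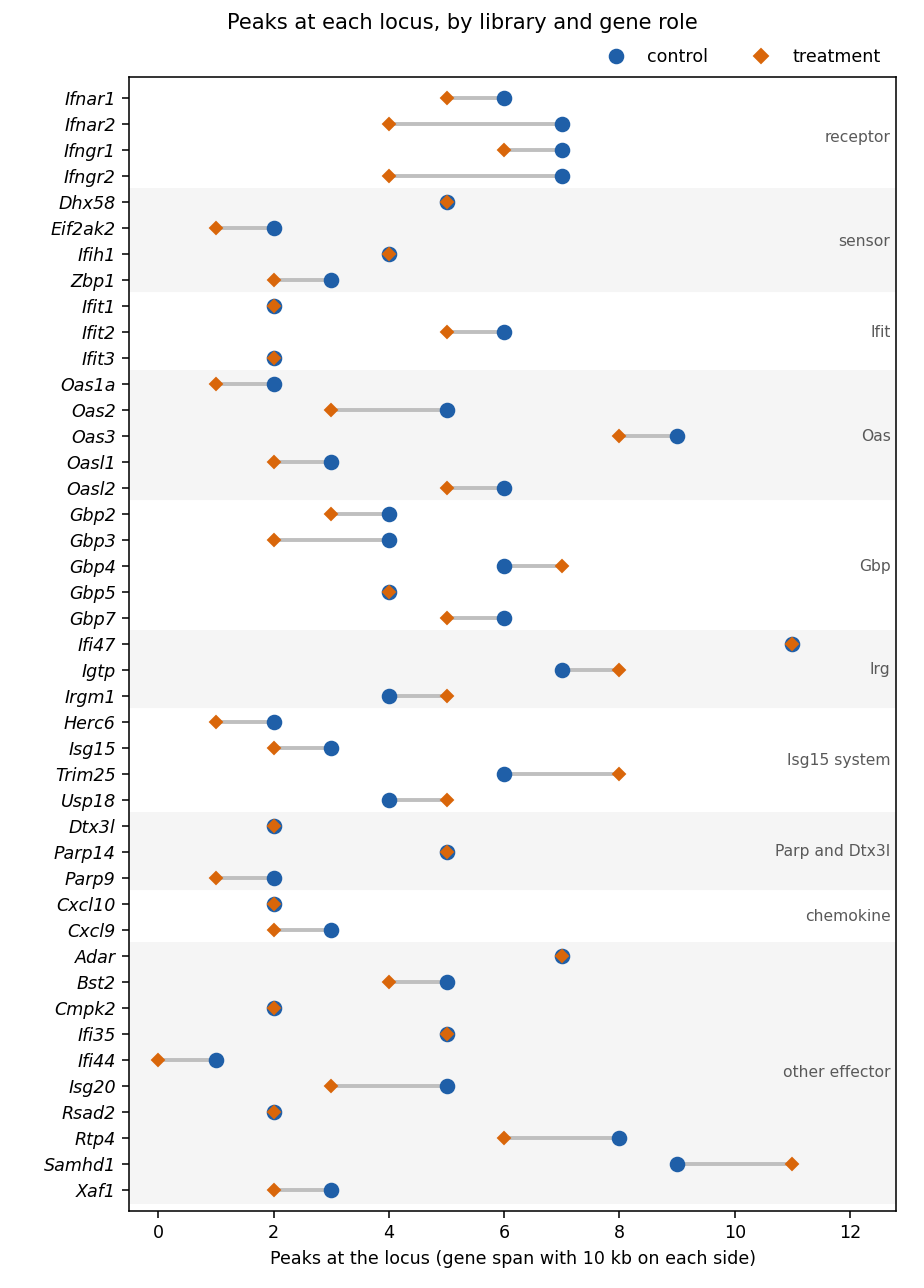
Number of peaks at each of the 43 loci in control and treatment, with genes grouped by role; each pair of points is 1 gene. Ifi47 has 11 peaks in each library, the 4 receptor genes and 5 Oas genes have fewer in treatment, and Samhd1 goes from 9 in control to 11 in treatment.

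A peak stood within 1 kb of an end of the gene itself in both libraries at 37 members (all genes 58.1%). It stood there in control only at Ifi47 and Isg15 (4.82%), in treatment only at Ifngr2 (0.667%) and in neither at Ifi44, Oasl1 and Parp9 (36.4%). At Ifngr2 the difference came from where the summit was placed, since a control peak of 2036 bp at chr16:91545500-91547535 overlapped the treatment peak of 2070 bp and their summits lay 1364 bp apart. Of the 43 members, 26 had at least 1 control-only peak (all genes 48.7%) and 10 had at least 1 treatment-only peak (12.6%). These all-gene shares again count genes without a peak in either library.

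Among the receptor genes, Ifnar1, Ifnar2 and Ifngr1 had strong end peaks in both libraries, the peak over the Ifngr2 start was weaker (7.11-fold in control and 7.61-fold in treatment), and the control-only peaks lay inside or beside the genes. The 4 loci held 27 control peaks and 19 treatment peaks, a ratio of 0.704. Of the control peaks 18 were shared (66.7%, 47.8 to 81.4), beside 72.5% at the loci of all genes and 86.3% for the 160 control peaks of the stimulated genes. All 5 gene-end peaks were shared, and 13 of the 22 others were.

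Ifnar1, the signalling chain of the type I receptor, had 6 control peaks and 5 treatment peaks (1 more in treatment with equal lists). Its start peak had 2040 reads (95% Poisson interval 1952 to 2130) at 16.5-fold in control and 1887 reads (1803 to 1974) at 16.2-fold in treatment. Ifnar2, the ligand-binding chain, had 7 and 4 peaks. Its end peaks had 1100 and 1714 reads in control and 736 and 1389 reads in treatment, and a peak upstream of it had 1890 reads at 18.0-fold in control and 1315 reads at 18.6-fold in treatment. Coverage was lower in treatment in all 16 overlapping pairs at the receptor loci, with a median ratio of 0.755 beside 0.720 for all pairs. Over all gene loci, 15.2% of pairs had higher coverage in treatment, so most were lower there too. Fold was higher in treatment in 5 of the 16 receptor pairs (31.25%, all pairs 26.3%).

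Ifngr1, which binds interferon gamma, had 7 control peaks and 6 treatment peaks. Its start peak was the one with the most reads among the receptors, 2416 reads at 13.2-fold in control and 2153 reads at 16.1-fold in treatment. Coverage was lower and fold higher in treatment at that peak, so the measures did not move alike. A pair of control-only peaks inside Ifngr1 had 695 and 386 reads at 3.21-fold and 2.68-fold. A treatment-only peak past its end had 83 reads at 5.23-fold, the highest fold among the 14 treatment-only peaks.

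Ifngr2, the signalling partner of Ifngr1, had 7 control peaks and 4 treatment peaks. A group of 4 control-only peaks lay from the gene body to just past the gene. The strongest, at chr16:91561758-91562363, had 214 reads (186 to 245) at 11.5-fold, the highest fold of the 31 control-only member peaks, and the nearest treatment peak was 7571 bp away. The others had 41, 105 and 176 reads. Ifngr2 also had a treatment-only peak of 243 reads at 2.60-fold. Ifnar1, Ifnar2 and Ifngr2 lie close together on chromosome 16, and their loci held 20 control and 13 treatment peaks.

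**Figure D4:**
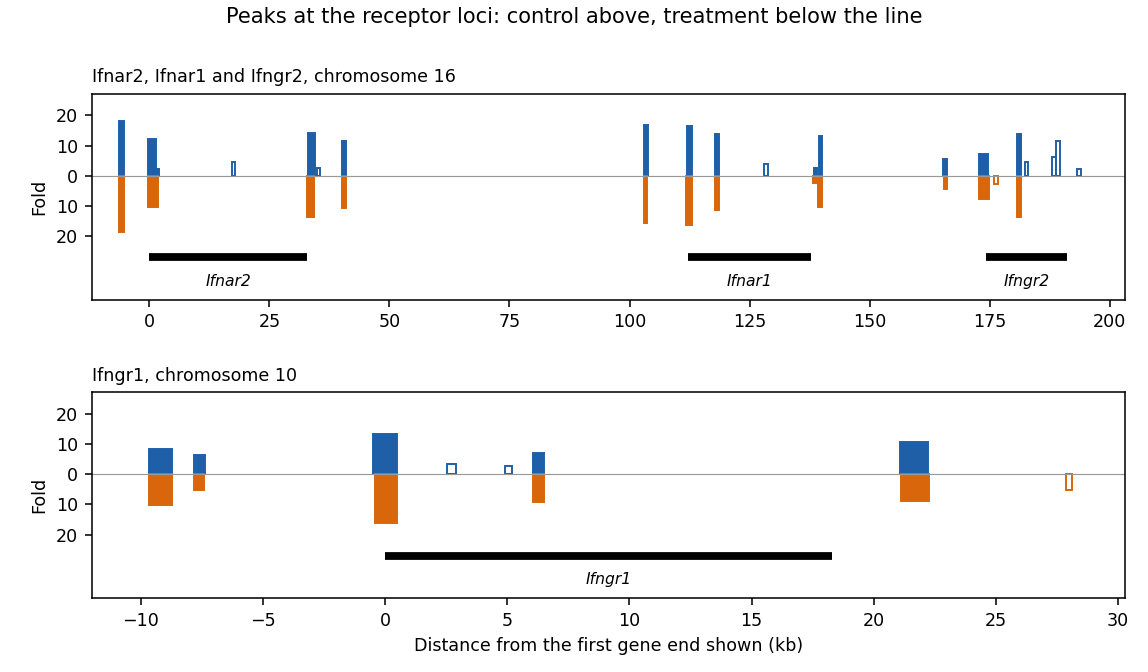
Peaks along the receptor loci, with position in kb on the x axis and the authors' fold enrichment on the y axis, control above the line and treatment below; filled bars overlap a peak of the other library, open bars do not, and black bars are gene spans. Narrow peaks are drawn at a minimum width and the x axes differ in span. Open control bars stand at the far end of Ifngr2, the highest at 11.5-fold.

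The RNA sensors kept their main peaks. Ifih1, which senses long double-stranded RNA, had 4 peaks in each library, with a start peak of 965 reads in control and 719 reads in treatment. A flanking Ifih1 peak had 357 reads at 23.6-fold in control and 242 reads at 15.1-fold in treatment. Dhx58, a related helicase, had 5 peaks in each library, all at gene ends and all shared. At Eif2ak2, the kinase that stops translation when it binds double-stranded RNA, the start peak had 624 reads in control and 305 reads in treatment, and a second peak of 44 reads was in control only. Zbp1, a sensor that triggers cell death, had 3 and 2 peaks (1 more in treatment with equal lists), with a start peak of 1068 and 955 reads.

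The Ifit genes, whose products bind viral RNA, lie together on chromosome 19 and held 9 control peaks and 8 treatment peaks. Of the 9 control peaks, 8 were shared (88.9%, 56.5 to 98.01), and all 8 treatment peaks were, beside 72.5% and 93.7% at the loci of all genes. The covered DNA was 5.72 kb in control and 5.47 kb in treatment. The start peak of Ifit1, over the sequence shown above, had 605 reads (558 to 655) in control and 553 reads (508 to 601) in treatment. The start peak of Ifit2 had 1151 and 1006 reads, and that of Ifit3 had 823 and 605 reads. The 2 intervals at the Ifit1 start overlapped, but they cover counting error only and are not a test of a difference.

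Other Ifit peaks differed more, and not all in one direction. The peak at the far end of Ifit3 (chr19:34587945-34588670) had 598 reads (551 to 648) at 9.84-fold in control and 203 reads (176 to 233) at 4.56-fold in treatment. Inside Ifit2, a peak at chr19:34569736-34570632 had 554 reads in control and 249 reads in treatment. Another inside Ifit2, at chr19:34562600-34562917, had 63 reads (48.4 to 80.6) in control and 135 reads (113 to 160) in treatment. It was the only 1 of 8 Ifit pairs that was higher in treatment (12.5%, all pairs 15.2%). A narrow control-only peak upstream of Ifit2 (chr19:34548081-34548266) had 348 reads at 4.77-fold. The median coverage ratio over the 8 pairs was 0.731, beside 0.720 for all pairs.

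The Oas genes, which make the second messenger that activates RNase L, had the lowest coverage ratio of the 3 clusters. Their loci held 20 control peaks and 16 treatment peaks, and 16 of the 20 control peaks were shared (80%, 58.4 to 91.9, all loci 72.5%). All 16 treatment peaks overlapped a control peak, as did 93.7% of treatment peaks at all gene loci. The median coverage ratio over 16 pairs was 0.628 (all pairs 0.720), and 1 pair was higher in treatment (6.25%, all pairs 15.2%). Covered DNA was 11.4 kb in control and 8.995 kb in treatment.

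The difference within the Oas genes was larger at Oas1a, Oas2 and Oas3 than at Oasl1 and Oasl2. The first region held 13 control and 10 treatment peaks over 6.75 and 4.65 kb, and the second 7 and 6 peaks over 4.67 and 4.35 kb. Oas2 had 5 and 3 peaks and Oas3 had 9 and 8. A peak inside Oas3 that also lies within 10 kb of Oas2 (chr5:120754178-120754849) had 262 reads (231 to 296) at 12.5-fold in control and 67 reads (51.9 to 85.1) at 4.24-fold in treatment. The end peak of Oas2 had 106 and 44 reads, and a peak inside Oas2 had 294 and 194 reads. Peaks flanking Oas3 were also lower, with 400 reads in control and 119 reads in treatment at chr5:120786845-120787597.

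The strongest Oas peak by reads lay inside Oas3, with 2107 reads in control and 1660 reads in treatment, while its fold was 10.6 in control and 12.1 in treatment. The start peak of Oas3 had 676 and 401 reads at 3.38-fold and 2.91-fold. Oas1a had 2 and 1 peaks, the shared one weak at 70 and 55 reads. With equal lists Oas1a had 0 control peaks and 1 treatment peak, and Oasl2 had 1 more in treatment.

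Oasl1 and Oasl2 encode relatives of the Oas enzymes. Oasl2 had 6 and 5 peaks, with a start peak of 869 reads at 15.1-fold in control and 645 reads at 14.03-fold in treatment. Oasl1 had 3 and 2 peaks, none at its own ends. The peaks in its flanks were strong nonetheless. One, at the end of a neighbouring gene, had 882 reads at 23.7-fold in control and 733 reads at 21.4-fold in treatment, the highest member fold in each library.

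The Ifit, Oas, Gbp and immunity-related GTPase families hold near-identical copies, and how reads that fit several copies were treated is not given, so values inside these genes are uncertain to that extent. The Gbp genes, which encode GTPases that coat and break open the compartments of intracellular microbes, had the coverage ratio nearest 1 of the 3 clusters. Their loci held 21 control peaks and 19 treatment peaks. Of the 21, 18 were shared (85.7%, 65.4 to 95.02, all loci 72.5%), and of the 19, 17 were (89.5%, all loci 93.7%). The only treatment-only peaks of the 3 clusters were 2 at Gbp4. All 12 treatment peaks of the Gbp loci on chromosome 3 were shared. Covered DNA was 16.1 kb in each library. The median coverage ratio over 16 pairs was 0.951 (all pairs 0.720), and 7 of the 16 were higher in treatment (43.75%, all pairs 15.2%). The pair ratios ran from a lower quartile of 0.816 to an upper quartile of 1.138 for Gbp, from 0.406 to 0.786 for Oas and from 0.562 to 0.884 for Ifit.

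On chromosome 3, the loci of Gbp2, Gbp3, Gbp5 and Gbp7 held 15 control peaks and 12 treatment peaks. The start peak of Gbp5 had 478 reads (436 to 523) in control and 577 reads (531 to 626) in treatment. That of Gbp7 had 897 and 760 reads and that of Gbp3 had 1015 and 874 reads. Gbp5 had 4 peaks in each library and Gbp7 had 6 and 5.

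Single Gbp peaks moved in both directions. Inside Gbp2, a peak at chr3:142625862-142626391 had 192 reads (166 to 221) in control and 356 reads (320 to 395) in treatment. Inside Gbp7, a peak at chr3:142545339-142546006 had 377 reads (340 to 417) in control and 111 reads (91.3 to 134) in treatment. Gbp3 had 4 and 2 peaks, and its control-only peaks had 105 and 86 reads. Gbp2 had 4 control peaks and 3 treatment peaks because 1 treatment peak of 2281 bp at its start spanned a pair of control peaks of 1466 and 373 bp. Of all treatment member peaks, 4 of 166 (2.41%) spanned several control peaks in this way, against 0.611% over all loci.

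Gbp4, on chromosome 5, had 6 control peaks and 7 treatment peaks. Its end peaks had 912 and 426 reads in control and 989 and 685 reads in treatment, and a flanking peak at the end of another gene had 753 and 1027 reads. A further flanking peak went the other way, with 1180 reads in control and 685 reads in treatment. The treatment-only peaks of Gbp4 had 36 and 416 reads at 2.16-fold and 2.63-fold.

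**Figure D5:**
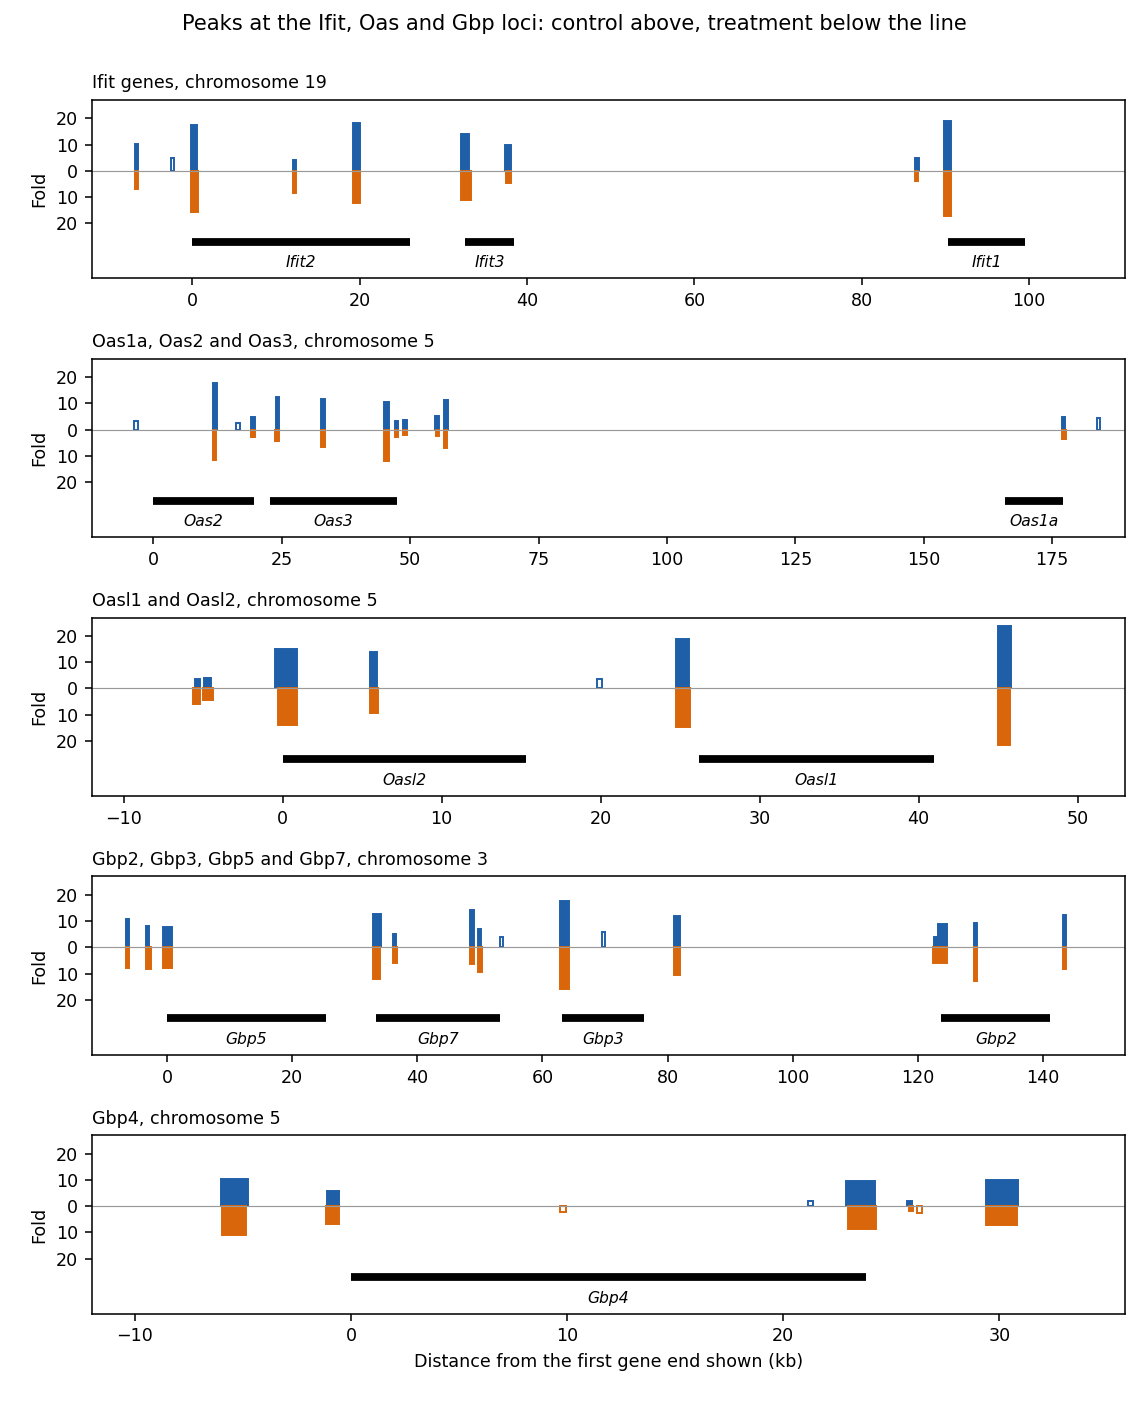
Peaks along the Ifit, Oas and Gbp loci, with position in kb on the x axis and the authors' fold enrichment on the y axis, control above the line and treatment below; filled bars overlap a peak of the other library, open bars do not, and black bars are gene spans. Narrow peaks are drawn at a minimum width and the x axes differ in span. Inside Oas3, on the side towards Oas2, a control bar of 12.5-fold faces a treatment bar of 4.24-fold. The bar of the peak inside Oas3 with the most reads is higher in treatment (10.6-fold and 12.1-fold).

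The immunity-related GTPases Ifi47, Igtp and Irgm1, which act on the vacuoles of parasites, had more peaks in treatment as a group, 24 against 22. Of the 22 control peaks 21 were shared (95.5%, 78.2 to 99.2, all loci 72.5%), and of the 24 treatment peaks 20 were (83.3%, all loci 93.7%). Ifi47 had 11 peaks in each library, and the peak found in control only stood at its end (132 reads at 3.10-fold). Igtp had 7 and 8 peaks and a start peak of 1245 and 1011 reads. Irgm1 had 4 and 5 peaks and a start peak of 968 and 938 reads. Igtp and Irgm1 each had 1 fewer in treatment when 50 kb was added on each side. With no extension both had 2 in each library and Ifi47 had 7 and 6. At a −log10 q of at least 10, Igtp had 6 in each library. With equal lists the treatment excess was larger at Ifi47 (9 and 11) and Igtp (5 and 8). The higher group count thus depended on the setting. Treatment-only peaks stood at each gene, with 97 reads at Irgm1, 66 reads at Ifi47, and 78 and 249 reads at Igtp.

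Isg15 encodes a ubiquitin-like protein that is attached to other proteins. Its locus had 3 control peaks and 2 treatment peaks. The peak at its start (chr4:156200722-156200969), which overlaps part of the window with 3 matches to the core, had 436 reads (396 to 479) at 3.88-fold and was 248 bp wide in control. The nearest treatment peak was 1927 bp away. The flanking peaks, at the ends of neighbouring genes, had 879 and 525 reads in control and 1026 and 375 reads in treatment, so treatment peaks stood on both sides of the gene.

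The enzymes of the Isg15 system had start peaks in both libraries. Usp18, which removes Isg15 from its targets, had 4 and 5 peaks, a start peak of 967 and 742 reads, and a flanking peak of 21.1-fold in control and 20.6-fold in treatment. Herc6, the ligase that attaches Isg15 in mouse, had 2 and 1 peaks. Trim25, a ubiquitin ligase of the RNA-sensing pathway, had 6 and 8 peaks, with a start peak of 1358 and 1177 reads and a flanking peak of 18.1-fold in control and 18.7-fold in treatment. The Trim25 treatment-only peaks had 68 and 52 reads.

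Parp9 and Dtx3l, which act as partners in ADP-ribosylation and ubiquitination, and Parp14, another ADP-ribosyltransferase, held 8 control and 7 treatment peaks. Dtx3l had 2 peaks in each library, with a start peak of 1251 reads in control and 1121 reads in treatment. The same peak lies over the Parp9 locus, whose own ends had none by summit. Parp9 had 2 and 1 peaks, and Parp14 had 5 in each library.

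At the chemokine genes, Cxcl9 and Cxcl10, whose products draw in T cells through Cxcr3, all 4 pairs had fewer reads in treatment. Most pairs over all gene loci did too, since 15.2% of them had more reads in treatment. Fold was higher in treatment in 1 of the 4 chemokine pairs (25%, all pairs 26.3%). That pair, in the flank of Cxcl10, had 938 reads at 15.5-fold in control and 926 reads at 16.4-fold in treatment. The end peak of Cxcl9, which lies outside the promoter window, had 398 reads (360 to 439) at 21.0-fold in control and 193 reads (167 to 222) at 12.1-fold in treatment. The start peak of Cxcl10, which overlaps the sequence shown above, had 530 reads at 9.09-fold in control and 363 reads at 6.44-fold in treatment. Cxcl9 also had a control-only peak of 143 reads at 9.504-fold. The median coverage ratio over the 4 pairs was 0.751, beside 0.720 for all pairs.

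At Samhd1, which depletes the nucleotides that retroviruses need, most pairs had more reads in treatment, while fold moved in both directions. Samhd1 had 9 control peaks and 11 treatment peaks. A peak inside the gene (chr2:157118869-157119454) had 470 reads (428 to 514) in control and 796 reads (742 to 853) in treatment. Other pairs inside Samhd1 or in the gene beside it had 54 and 117 reads, 68 and 164 reads, 175 and 347 reads, 210 and 319 reads, 241 and 257 reads, and 1061 and 1154 reads. Its start peak was near equal at 1306 and 1248 reads, and a flanking peak was lower, at 491 and 396 reads. Of its 9 pairs, 7 had more reads in treatment, and fold was lower in treatment in 6, which include 4 of those 7. Among all pairs at gene loci, 15.2% had more reads and 26.3% a higher fold in treatment. Fold was 15.3 in control and 11.6 in treatment where the reads were 1061 and 1154.

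The remaining effectors were mixed. Bst2, which tethers budding virus to the cell, had 5 and 4 peaks. Its start peak had 1161 and 952 reads, a peak inside the gene had 546 reads (501 to 594) in control and 183 reads (157 to 212) in treatment, and a flanking peak at another gene's end was level at 1131 and 1133 reads. Another Bst2 flanking peak reached 20.2-fold in control and 18.3-fold in treatment. Rsad2, the viperin enzyme, had 2 peaks in each library and a start peak of 623 and 666 reads. Its neighbour Cmpk2, a nucleotide kinase, had 2 in each and a start peak of 1077 and 958 reads.

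Isg20, an RNA exonuclease, had 5 and 3 peaks, with end peaks of 994 and 904 reads in control and 624 and 599 reads in treatment. Fold at these peaks was 7.97 and 7.31 in control and 8.23 and 7.91 in treatment, so reads and fold differed in direction. Rtp4 had 8 and 6 peaks, and its end peak was weak, with 56 and 42 reads. Xaf1, which promotes cell death, had 3 and 2 peaks (1 more in treatment with equal lists) and a start peak of 919 and 619 reads at 19.7-fold and 17.5-fold. Adar, which edits double-stranded RNA, had 7 peaks in each library, all of them shared.

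Ifi35 had 5 peaks in each library, with a start peak of 1010 and 831 reads and a treatment-only peak of 51 reads. Ifi44 was the member with the fewest peaks. It had 1 control peak of 60 reads at 4.03-fold and no treatment peak. Its promoter window, shown above, held neither motif and no peak.

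The other genes of the interferon pathway were counted from lists by role. Of 17 signalling genes, 11 had fewer peaks in treatment, 3 more and 3 as many, beside 44.7%, 5.65% and 29.5% of all protein-coding genes. They held 144 control peaks and 115 treatment peaks, a ratio of 0.799 beside 0.776 for all loci. The same shares of all genes, in which genes without a peak are counted, apply to the lists that follow. Among them Jak1, a kinase of both receptors, had 29 and 22 peaks, Irf3 5 and 1, Irf8 8 and 4, Irf9 5 and 3, Irf2 13 and 9, Socs3 5 and 3, Ptpn1 15 and 11, and Ptpn2 10 and 7. Jak1, Irf3, Irf8 and Irf9 each had an own-end peak in both libraries.

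Of 9 further sensors and adaptors, 3 had fewer peaks in treatment, 1 more and 5 as many. Mavs, the adaptor of RNA sensing, had 6 and 3 peaks, Tlr9 5 and 3, and Cgas, the DNA sensor, 4 and 6. Of 4 ligand genes 3 had fewer. Ifng, encoding interferon gamma, had 6 and 5 peaks, and its end peak had 460 reads at 13.9-fold in control and 172 reads at 9.47-fold in treatment. Ifng was named after its values were seen.

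Of 50 further interferon-stimulated genes, 21 had fewer peaks in treatment, 7 more, 21 as many and 1 none in either, with 265 and 238 peaks, a ratio of 0.898 beside 0.888 for the 43 members. Peaks of both lists stood at an own end of 43 of these 50 genes, beside 58.1% of all genes. Those with more by 2 were Slfn8 (4 and 6) and Epsti1 (7 and 9). Those with fewer by 2 or more were Gbp6 (6 and 4), Gbp10 (5 and 3), Helz2 (4 and 2), Irgm2 (8 and 6), Lgals3bp (6 and 4), Oas1c (5 and 3), Rnf213 (14 and 11), Sp110 (10 and 6), Tor3a (5 and 3), Trim30a (5 and 3) and Znfx1 (7 and 4). At Sp110, a nuclear body protein gene, the strongest end peak had 272 reads in control and 77 reads in treatment.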

How the data were processed

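ATAC-seq peak lists of 2 libraries, 1 per group, were analysed. Per the submitters' processing notes, cutadapt 2.5, Bowtie2 2.3, Picard 2.20 and MACS2 were used with the mm10 build. Their settings, the MACS2 version, any transposase shift and any filter on duplicates or mapping quality are not given in the sources used here. Each deposited peak carries a start, end and summit, a score, a ratio giving the fold over local background, and −log10 p and −log10 q values, all from the authors' peak caller. Peaks were called per library, and the lowest deposited −log10 q was 2.00 in each list.

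Other contigs than chromosomes 1 to 19, X and Y were dropped, which left 85137 control and 64910 treatment peaks. The gene table was RefSeq's, GRCm38.p6. A peak was placed by its summit. Fold and −log10 p together gave a whole-number summit coverage for 99.994% of the peaks in control, 99.977% of those in treatment and all member peaks (tolerance 0.001 in −log10 p). Read totals were not used here. The lowest background, divided by the narrowest peak width, differed between the libraries by a ratio of 1.006. This is the one measure of relative depth, and it assumes that the caller ran alike on both. Shares carry 95% Wilson intervals and coverage exact Poisson intervals.

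The members and lists were chosen with earlier results of these data known. Named were the receptors, all Ifit, Oas and Gbp genes, members differing by 2 or more peaks, with an end peak in 1 library or neither, or with a treatment-only peak, and the 5 members with the most peaks and the 5 with the highest fold. Other members are given for completeness. The values of 1 signalling gene are not reported here. Alternatives were other overlap rules, list lengths, −log10 q minimums, locus sizes and gene-end windows. Scripts used python 3.11.15, numpy 2.4.6, pandas 2.3.3, scipy 1.17.1, statsmodels 0.14.6 and matplotlib 3.10.9, and were tested on simulated data.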

Additional observations from a re-analysis of the deposited data

How the results depend on the processing

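Of 80 comparisons of a summary value with its value under an alternative, 63 stayed within the main interval, or within 1.5 times for a count, and 17 moved. With lists of equal length, the shared percentages were 91.7 for control member peaks (all loci 84.9), 98.2 for gene-end (all loci 95.4) and 87.5 for other control peaks (all loci 81.2). They were 100% of 14 Oas control peaks and 78.9 for treatment peaks (all loci 84.6). Counting peaks as shared only when summits lay within 150 bp gave 77.0 for control, beside 67.7 over all loci. With no extension of the gene span, 104 control and 87 treatment peaks remained, and 14 members had fewer and 1 more in treatment. Shared then were 100% of 6 Ifit control peaks (all loci 73.6) and 96.6% of treatment peaks (all loci 93.9). With 50 kb on each side there were 424 and 358 peaks, and 2 members had more in treatment. With equal lists 8 had fewer and 15 more. The shares of all genes with fewer or more peaks were not counted under these alternatives. The treatment minus control number turned to 1 at Ifnar1, Oas1a, Oasl2, Xaf1 and Zbp1 and to 2 at Rtp4 with equal lists, which drop weak control peaks by construction, and to -1 at Igtp and Irgm1 with 50 kb. The median coverage ratio of member pairs lay between 0.767 (50 kb on each side) and 0.840 (no extension) under its 5 alternatives, beside 0.815 in the main setting. All counted as unmoved by a rule taken from the spread over pairs (lower quartile 0.690, upper quartile 0.966). That rule is loose, since the 0.720 of all pairs at gene loci would also pass it. It cannot show that the difference between members and all pairs holds, and the ratio of all pairs was not computed under the alternatives. The alternatives for member numbers, this ratio and single genes were chosen after seeing the data. No paired analysis was possible because the labels carry no replicate numbers and each group has 1 library. The depth of each library is known only through its peaks, so a site that carries a peak in 1 list may hold reads below the caller's threshold in the other.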
